A study of Mus musculus with 40 samples.

Results

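The 7 genes described here belong to the cytokine pathway that runs through the transcription factor STAT3 and its inhibitor SOCS3. They are the receptor chains Osmr, Il6st and Il4ra, the transcription factor Stat3, the feedback inhibitor Socs3, the kinase Pim1 and the NF-kB partner Bcl3. They were picked by symbol from a list made with earlier results of these data known. All 7 were listed in both tables, which hold 17402 genes (genotype experiment) and 15399 genes (CsA experiment), and all 7 were among the 14424 and 13741 protein-coding genes tested.

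Aortic RNA of male mice was sequenced after the adventitia and perivascular tissue had been removed, and each library was a pool of 3 aortas. In the genotype experiment (22 libraries) the mice labelled CnB1-flox;Myh11-CreERT2-neg (Cn-Ctl) and CnB1-flox;Myh11-CreERT2-pos (SM-Cn-/-) had all received tamoxifen, 1 mg a day for 5 days, and were used 6 weeks later, either untreated or after 2, 6, or 24 h of angiotensin-II (Ang-II) at 1 µg/kg/min from a minipump. CnB1 is the regulatory subunit of the phosphatase calcineurin (Cn), and the Myh11 promoter restricts the Cre to smooth muscle, so that other cells of the aorta keep the gene. In the CsA experiment (18 libraries) C57BL/6J mice were given no drug (WT) or the calcineurin inhibitor cyclosporin A from a minipump for 5 days (CsA), and were then left without Ang-II, called untreated here, or given the same Ang-II dose for 2 or 24 h. WT mice carried no pump during those days, so CsA and the pump cannot be told apart. Mice called untreated carried no Ang-II pump, so Ang-II and its pump cannot be told apart either. The paper describes its controls as operated on in the same way but given no pump. Each group held 3 libraries, except for 2 in untreated Cn-Ctl and 2 in Cn-Ctl at 24 h. Treated Cn-Ctl, WT and CsA mice were kept only when their systolic pressure was above 130 mmHg, whereas SM-Cn-/- mice were not selected by pressure. The paper also removed SM-Cn-/- mice in which CnB1 deletion could not be shown. It likewise removed CsA mice in which inhibition of the calcineurin substrate NFAT could not be shown in the thymus.

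Cytokines of the interleukin-6 family bind a receptor made of a ligand-specific chain and the shared chain gp130, and the Janus kinases bound to these chains then phosphorylate STAT3, which moves to the nucleus. Socs3 is among the genes that STAT3 switches on, and the SOCS3 protein binds back to gp130 and its kinases and damps the signal. In the vessel wall this pathway is known for the acute response of smooth muscle and endothelial cells to inflammatory cytokines.

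Libraries held 2.73 M to 10.25 M assigned reads in the genotype experiment (median 6.52 M) and 18.98 M to 38.9 M in the CsA experiment (median 22.8 M), so the second experiment measured low genes more precisely. The deepest library of the second experiment, CsA at 24 h replicate 3, was also higher than both other replicates of its group for all 7 genes, and results that rest on it are given with and without it. Ppp3r1, the gene for CnB1, ranged from 41.8 to 118 in the 12 SM-Cn-/- libraries and from 45.7 to 134 in the 10 Cn-Ctl libraries and passed the test at no time (adjusted p 0.429 to 0.983 in limma), so the label was not checked by this mRNA. The paper checked the deletion by PCR on a piece of the aortic tissue and by immunoblot of CnB in aortic extracts. All 6 smooth muscle markers were detected, with a summed signal of 16240 or more in every library. Of the 5 T cell genes looked for, Cd3e, Cd3d and Trac were not listed in either table. Lck was listed in both, reaching 10.1 in WT at 2 h, and Cd3g in that of the genotype experiment only. Fewer cells of a type and less RNA per cell cannot be told apart in such bulk samples.

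Signal is given throughout as the authors' normalised value, close to reads per 1 M assigned reads. Differences are log2 fold changes ± standard error from limma after adding 0.5 to each value, and passing the test means a Benjamini-Hochberg adjusted p under 0.05 over all protein-coding genes of that experiment. The pools were not stated to come from separate cohorts, so these p-values measure the spread between pools.

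Per kilobase of exon, untreated WT aorta held the most of Il6st, the gp130 chain (28.4 per kb, libraries from 26.7 to 29.7), followed by Stat3 (12.5 per kb, 11.9 to 12.9). Osmr (2.91 per kb, 2.76 to 3.08), Pim1 (2.69 per kb, 2.52 to 2.81) and Socs3 (2.56 per kb, 2.03 to 3.37) overlapped one another, and Socs3 also overlapped Il4ra (1.91 per kb, 1.70 to 2.08). Bcl3 was the lowest (0.624 per kb, 0.400 to 0.891) and did not overlap the rest. In untreated Cn-Ctl aorta Il6st, Stat3 and Bcl3 held the same places, at 24.2, 10.3 and 0.349 per kb.

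The promoters of 4 members that passed the test in Cn-Ctl at each time are shown because they carry, or lack, the short motifs of the factors named in this pathway. The windows run from 250 bases before to 50 after the RefSeq start (GRCm38.p6). Capitals mark matches on either strand to the STAT motif TTCNNNGAA, the AP-1-like pattern TGANTCA or the NF-kB motif (matched here as GGAAAGCCCC). The AP-1-like pattern allows any base at its centre. RefSeq held 8 such windows for the 7 genes.
Socs3, minus strand, chr11:117969317-117969616: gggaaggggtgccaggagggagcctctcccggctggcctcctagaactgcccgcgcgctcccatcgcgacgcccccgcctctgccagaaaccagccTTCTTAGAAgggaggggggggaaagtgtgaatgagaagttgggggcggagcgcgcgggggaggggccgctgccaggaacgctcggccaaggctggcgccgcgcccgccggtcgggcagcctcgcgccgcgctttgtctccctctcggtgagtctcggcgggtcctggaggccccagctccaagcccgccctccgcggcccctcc
Stat3, minus strand, chr11:100939491-100939790: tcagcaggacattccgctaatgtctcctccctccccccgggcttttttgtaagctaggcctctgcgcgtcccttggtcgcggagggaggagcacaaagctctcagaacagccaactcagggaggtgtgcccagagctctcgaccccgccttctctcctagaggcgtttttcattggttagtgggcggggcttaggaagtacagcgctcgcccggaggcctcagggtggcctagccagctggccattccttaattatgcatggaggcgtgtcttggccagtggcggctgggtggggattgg
Osmr, minus strand, chr15:6874264-6874563: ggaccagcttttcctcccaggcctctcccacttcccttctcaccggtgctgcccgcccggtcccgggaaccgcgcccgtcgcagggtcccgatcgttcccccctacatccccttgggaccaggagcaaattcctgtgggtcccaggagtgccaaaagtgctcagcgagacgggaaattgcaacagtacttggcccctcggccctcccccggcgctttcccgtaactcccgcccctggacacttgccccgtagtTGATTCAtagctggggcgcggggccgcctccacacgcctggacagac
Il4ra, plus strand, chr7:125552021-125552320: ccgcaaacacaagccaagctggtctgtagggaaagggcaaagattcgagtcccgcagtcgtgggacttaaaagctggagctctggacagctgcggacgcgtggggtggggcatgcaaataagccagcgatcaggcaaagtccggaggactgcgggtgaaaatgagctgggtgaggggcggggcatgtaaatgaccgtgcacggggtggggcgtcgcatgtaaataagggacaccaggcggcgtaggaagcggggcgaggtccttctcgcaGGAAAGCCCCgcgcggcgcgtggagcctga

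Among the 8 windows the STAT motif was found only in that of Socs3, where TTCTTAGAA starts 154 bases before the RefSeq start. It is present in 8.30% of 32851 mouse promoter windows. The AP-1-like pattern was found only in the Osmr window, as TGATTCA with T at its centre (7.81% of all windows held the pattern). The NF-kB motif was found only in the Il4ra window (1.63% of all windows). The core motif of NFAT, the factor that calcineurin dephosphorylates, GGAAA, was found in 6 of the 8 windows and in 61.3% of all windows; the NF-kB match of Il4ra contains it. The Socs3 and Osmr gene models of GENCODE start 681 and 656 bases upstream of the RefSeq start, so these windows lie inside those models, and a match in such letters is a description and not a binding site.

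In control aortas Ang-II was followed by higher mRNA of the inhibitor, the transcription factor and the receptor chains Osmr and Il4ra, while the gp130 gene did not pass the test. At 2 h, 5 of the 7 genes rose in Cn-Ctl (6.23% of all genes tested passed) and 6 of 7 rose in WT (21.4% of all genes). The median log2 fold change of the 7 was 1.34 in Cn-Ctl and 1.04 in WT, against medians of 0.01 and 0.02 over all genes. At 6 h, 4 of 7 rose in Cn-Ctl (3.97% of all genes). At 24 h, 4 of 7 rose in Cn-Ctl (5.62% of all genes) and 6 of 7 in WT (35% of all genes).

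Socs3 (ENSMUSG00000053113, chr11:117966079-117970047 in GRCm38) had the highest fold change of the 7 at 2 h in both control strains. In Cn-Ctl its signal was 4.73 and 3.56 in the untreated libraries and 25.4, 72.3 and 22.9 at 2 h. In WT it was 6.56, 5.86 and 9.75 untreated and 49.2, 40.9 and 67.1 at 2 h. No treated library overlapped an untreated one, and Socs3 rose by 2.94 ± 0.44 in Cn-Ctl (adjusted p = 0.000126) and 2.75 ± 0.33 in WT (adjusted p = 2.91e-05). It was still up at 24 h, by 3.07 ± 0.48 in Cn-Ctl (23.8 and 61.5, adjusted p = 0.000727) and 2.76 ± 0.33 in WT (45.4, 70.8 and 43.2, adjusted p = 1.79e-05). At 6 h in Cn-Ctl it stood at 16.1, 26.0 and 31.5 (log2 fold change 2.39 ± 0.44, adjusted p = 0.0023), a call lost without untreated Cn-Ctl replicate 3 (2.21, adjusted p = 0.0606).

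Stat3 (ENSMUSG00000004040, chr11:100885098-100939540), which overlaps the end of Stat5a on the other strand, rose by a smaller fold and from a higher level. Its signal in Cn-Ctl was 97.9 and 97.6 untreated and 211, 247 and 201 at 2 h, and in WT 120, 114 and 123 untreated and 228, 197 and 221 at 2 h. The groups did not overlap, and the log2 fold changes were 1.16 ± 0.18 (adjusted p = 0.000228) and 0.85 ± 0.11 (adjusted p = 7.17e-05). In WT it was as high at 24 h (203, 228 and 206, log2 fold change 0.83 ± 0.11, adjusted p = 4.93e-05). In Cn-Ctl it was 159, 175 and 192 at 6 h (0.84 ± 0.18, adjusted p = 0.01) and 179 and 167 at 24 h (0.82 ± 0.20, adjusted p = 0.0177). The 6 h call was lost without untreated replicate 2 or 3 (adjusted p 0.102 and 0.108), and the 24 h call was lost without untreated replicate 2 or 3 and without 24 h replicate 2 or 3 (adjusted p 0.0634 to 0.117, log2 fold change 0.77 to 0.87).

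The receptor chains differed. Osmr (ENSMUSG00000022146, chr15:6813577-6874969), the chain that gives gp130 its specificity for oncostatin M, went from 33.4 and 36.6 in untreated Cn-Ctl to 85.6, 93.7 and 89.0 at 2 h, with no overlap (1.34 ± 0.23, adjusted p = 0.000565). In WT it went from 37.3, 33.5 and 34.8 to 68.0, 56.6 and 64.8 at 2 h (0.83 ± 0.17, adjusted p = 0.00254) and to 96.0, 113 and 126 at 24 h (1.65 ± 0.17, adjusted p = 5.08e-06). Its level in WT was thus higher at 24 h than at 2 h (0.81 ± 0.17, adjusted p = 0.00173). In Cn-Ctl it was 85.0, 106 and 105 at 6 h (1.47 ± 0.23, adjusted p = 0.000471) and 70.3 and 97.5 at 24 h (1.23 ± 0.25, adjusted p = 0.00536), and the 24 h call was lost without untreated replicate 2 (1.17, adjusted p = 0.0708) or 24 h replicate 3 (1.00, adjusted p = 0.118).

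Il4ra (ENSMUSG00000030748, chr7:125552120-125579474), the chain shared by the receptors for interleukin-4 and interleukin-13, which signal mainly through STAT6, was highest at 24 h. In Cn-Ctl it stood at 3.71 and 6.11 untreated, 16.8, 16.6 and 23.3 at 2 h, 21.9, 15.2 and 34.0 at 6 h and 33.4 and 44.7 at 24 h. In WT it stood at 10.2, 11.8 and 12.5 untreated, 21.3, 28.4 and 23.2 at 2 h and 48.6, 90.9 and 65.0 at 24 h. The log2 fold changes were 1.86 ± 0.38, 2.12 ± 0.38 and 2.89 ± 0.41 in Cn-Ctl (adjusted p 0.00288, 0.0016 and 0.000317) and 1.04 ± 0.25 and 2.48 ± 0.25 in WT (adjusted p 0.00694 and 3.69e-06). In Cn-Ctl and in WT every treated library was above every untreated one of the same background. In Cn-Ctl the calls at 2 h and 6 h were lost without untreated replicate 2 (1.54, adjusted p = 0.0929, and 1.80, adjusted p = 0.0702). In WT the level was higher at 24 h than at 2 h (1.43 ± 0.25, adjusted p = 0.000398), and in Cn-Ctl that difference was 1.03 ± 0.38 (adjusted p = 0.102).

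Il6st (ENSMUSG00000021756, chr13:112464070-112510086), which codes for gp130, passed the test against untreated in neither control strain in limma. Under quantile normalization it was lower in WT at 2 h (-0.35, adjusted p = 0.0206, against -0.08 ± 0.09), and in DESeq2 it was higher in WT at 24 h (0.24, adjusted p = 0.0262, against 0.23 ± 0.09, adjusted p = 0.0666). Its signal lay between 194 and 306 in the 8 treated Cn-Ctl libraries, against 287 and 251 untreated. In WT the untreated libraries held 297 to 330, and all 3 libraries at 24 h lay above them. In WT it was higher at 24 h (345, 399 and 365) than at 2 h (313, 294 and 288), by 0.31 ± 0.09 (adjusted p = 0.0158), a call lost without the 2 h replicate 3 or the 24 h replicate 2 (adjusted p 0.0587 and 0.0773). With Osmr, Il4ra and Bcl3, this made 4 of the 7 genes higher at 24 h than at 2 h in WT (36.2% of all genes tested passed in either direction). In Cn-Ctl no member passed between 24 h and 2 h in limma (7.37% of all genes), 1 did at an unadjusted p under 0.05, and edgeR called 0 and DESeq2 1.

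The downstream genes were Pim1 and Bcl3. Pim1 (ENSMUSG00000024014, chr17:29490753-29496112), a serine/threonine kinase that promotes cell survival and is a known STAT target, went in WT from 9.44, 9.20 and 8.45 to 21.2, 16.7 and 24.1 at 2 h and 23.5, 24.5 and 21.8 at 24 h. It rose by 1.14 ± 0.23 and 1.32 ± 0.23 (adjusted p 0.00193 and 0.000348), with no overlap. In Cn-Ctl it scattered, with 8.23 and 20.2 untreated, 36.6, 43.6 and 18.4 at 2 h, 24.1, 18.5 and 33.4 at 6 h and 22.3 and 56.8 at 24 h, and it passed at no time (adjusted p 0.132 to 0.384). Without 24 h replicate 2 it passed at 24 h (2.09, adjusted p = 0.0472), as did Bcl3 (2.48, adjusted p = 0.0213).

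Bcl3 (ENSMUSG00000053175, chr7:19808462-19822770), an IkB-like protein that binds the p50 and p52 subunits of NF-kB, rose the most by 24 h in WT. Its signal there was 1.44, 0.993 and 2.21 untreated, 4.08, 9.07 and 5.06 at 2 h and 12.8, 18.4 and 17.9 at 24 h. These groups did not overlap, and the log2 fold changes were 1.65 ± 0.36 at 2 h (adjusted p = 0.00362) and 3.07 ± 0.36 at 24 h (adjusted p = 1.36e-05), with 1.42 ± 0.36 between them (adjusted p = 0.00603). In Cn-Ctl the untreated libraries had 2 and 7 reads of Bcl3 and those at 2 h had 20, 28 and 22, a log2 fold change of 1.82 ± 0.53 (adjusted p = 0.0423). That call was lost without each of the 5 libraries in turn (log2 fold change 1.26 to 2.38, adjusted p 0.0584 to 0.407) and in edgeR (adjusted p = 0.0967). Antisense genes overlap Pim1, Il4ra and Bcl3, and since strand-specific counting is not stated, reads of the 2 strands cannot be told apart. Cell markers moved in WT at 24 h as well. All 6 macrophage markers were higher than untreated (median log2 fold change 1.52), as were 2 of 5 neutrophil, 2 of 6 endothelial, 2 of 5 adipocyte and 2 of 5 fibroblast markers, and 3 of 6 smooth muscle markers were lower. Their part in the higher Il4ra, Bcl3 and other members was not tested.

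**Figure D1:**
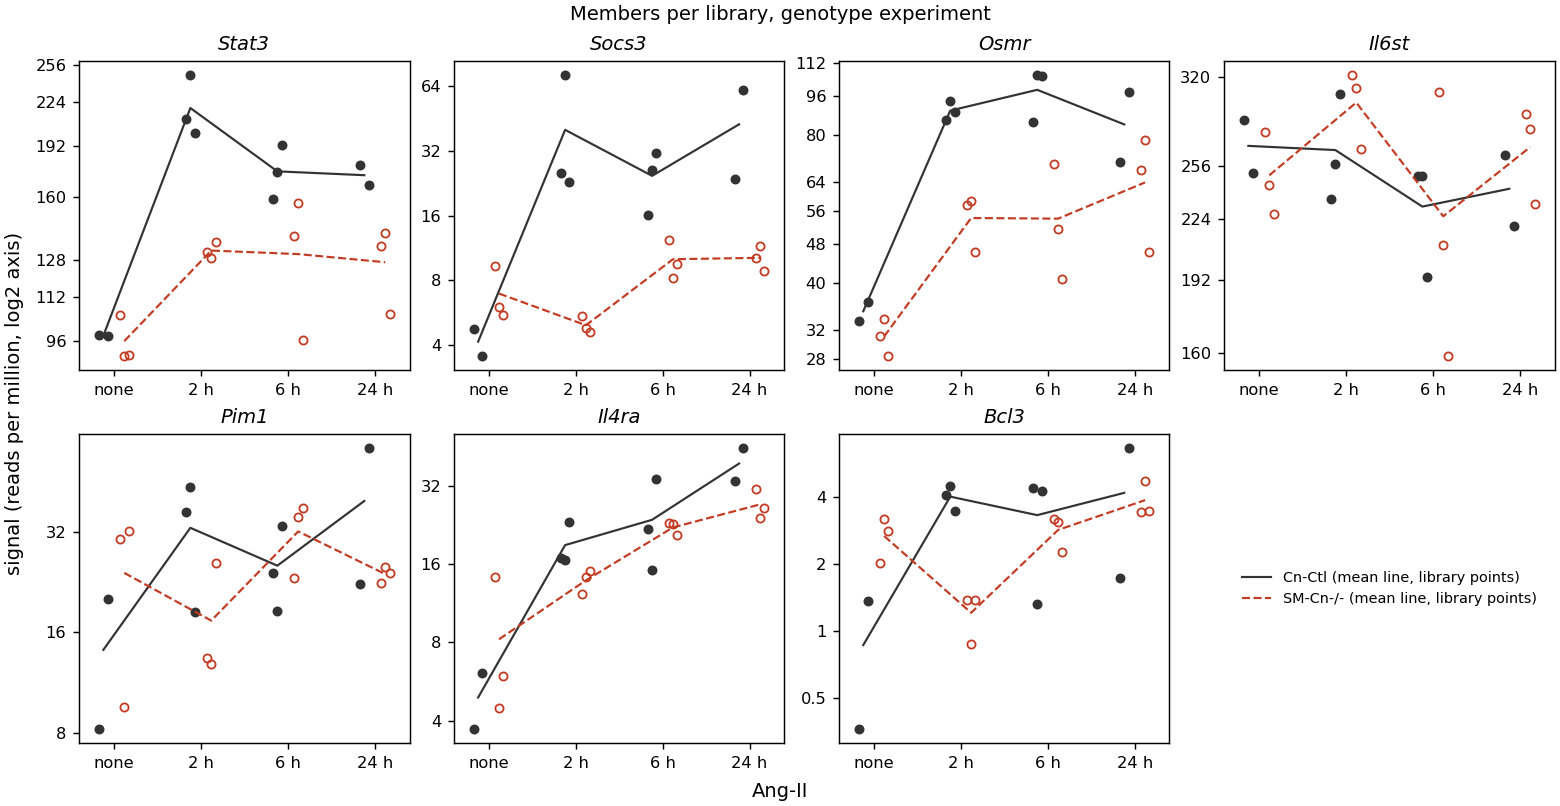
Signal of each gene (log2 axis, normalised value) in each of the 22 libraries of the genotype experiment by hours of Ang-II, with filled points for Cn-Ctl, open points for SM-Cn-/- and lines through the group means. Socs3 in SM-Cn-/- at 2 h lies between 4.61 and 5.43, below all Cn-Ctl libraries at 2 h (22.9 to 72.3).

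In SM-Cn-/- aortas no member passed the test at 2 h of Ang-II with all libraries in the fit, though Il4ra did without 1 untreated library, and Il4ra and Osmr rose later. At 2 h, 0 of the 7 genes passed against the untreated libraries of that genotype in limma (1.13% of all genes tested passed), 3 did at an unadjusted p under 0.05, and edgeR called 0 and DESeq2 1, Osmr. At 6 h, 1 of 7 passed in limma, Il4ra (2.34% of all genes), 3 did at an unadjusted p under 0.05, and edgeR and DESeq2 also called Osmr. At 24 h, 2 of 7 passed, Osmr and Il4ra (0.79% of all genes). Between 24 h and 2 h, 0 of 7 passed in limma (3.65% of all genes), with 3 at an unadjusted p under 0.05, 0 in edgeR and 1 in DESeq2.

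Socs3 was 9.33, 6.00 and 5.502 in untreated SM-Cn-/- and 5.43, 4.80 and 4.61 at 2 h. The treated libraries all lay below the untreated ones, and the log2 fold change was -0.42 ± 0.40 (95% interval -1.24 to 0.40, adjusted p = 0.67). At 6 h it was 12.3, 8.24 and 9.54 and at 24 h 10.2, 11.5 and 8.88 (0.52 ± 0.40 and 0.55 ± 0.40, adjusted p 0.548 and 0.657). Both groups overlapped untreated SM-Cn-/-, with 95% intervals of -0.30 to 1.34 and -0.27 to 1.37.

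Stat3 in SM-Cn-/- was 105, 91.0 and 91.3 untreated and 132, 129 and 136 at 2 h, with no overlap, but the log2 fold change of 0.47 ± 0.16 did not pass (adjusted p = 0.208). At 6 h (139, 156 and 96.3) and 24 h (134, 141 and 106) it was 0.42 ± 0.16 and 0.40 ± 0.16 (adjusted p 0.195 and 0.332). Without 6 h replicate 3, Stat3 passed at 6 h (0.62, adjusted p = 0.0472). Osmr was 31.1, 33.8 and 28.4 untreated, 57.6, 58.7 and 46.1 at 2 h, 69.6, 51.5 and 40.8 at 6 h and 67.7, 77.9 and 46.2 at 24 h. All its treated libraries lay above the untreated ones, with log2 fold changes of 0.78 ± 0.21 (adjusted p = 0.0727), 0.75 ± 0.21 (adjusted p = 0.0541) and 1.00 ± 0.21 (adjusted p = 0.0213). Osmr at 6 h passed with a group mean of at least 5 (adjusted p = 0.0484), a replicate block (0.0466) and quantile normalization (0.046). It also passed at 6 h in edgeR (0.0404), in DESeq2 (0.0123) and without 6 h replicate 3 (0.94, adjusted p = 0.0312). The 24 h call held only without 24 h replicate 3 and was lost without any other of the 6 libraries (log2 fold change 0.84 to 1.06, adjusted p 0.0501 to 0.139).

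Il4ra in SM-Cn-/- went from 14.3, 4.47 and 5.95 to 12.2, 14.3 and 15.1 at 2 h, 22.96, 22.9 and 20.6 at 6 h and 31.1, 24.2 and 26.3 at 24 h. It overlapped at 2 h (0.88 ± 0.34, adjusted p = 0.255), where it passed without untreated replicate 1 (1.34, adjusted p = 0.0339), and was above untreated in all libraries at 6 h (1.54 ± 0.34, adjusted p = 0.017) and 24 h (1.82 ± 0.34, adjusted p = 0.013). Both calls were lost without untreated replicate 2 or 3, the 6 h call also without 6 h replicate 2 and the 24 h call also without 24 h replicate 1 (log2 fold change 1.21 to 1.72, adjusted p 0.0655 to 0.0933). Il6st, Pim1 and Bcl3 passed at no time. Bcl3 had 13, 12 and 12 reads in the untreated libraries and 9, 6 and 8 at 2 h, a log2 fold change of -0.89 ± 0.47 (adjusted p = 0.441).

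Set against Cn-Ctl directly, untreated SM-Cn-/- aortas differed in 0 of the 7 genes in limma (0.0139% of all genes tested passed), with 1 at an unadjusted p under 0.05, Bcl3, and 0 in edgeR and in DESeq2. The Bcl3 difference was 1.30 ± 0.53 (adjusted p = 0.835) on the few reads given above. Socs3 was above both Cn-Ctl libraries in all 3 untreated SM-Cn-/- libraries as well, by 0.66 ± 0.44 (adjusted p = 0.983). At 2 h of Ang-II, 2 of 7 were lower in SM-Cn-/- (3.70% of all genes). Socs3 was lower by 2.70 on the log2 scale (-2.70 ± 0.40, adjusted p = 0.000202), a call kept without each library in turn (-3.00 to -2.18). Stat3 was lower as well (-0.72 ± 0.16, adjusted p = 0.012), a call lost without Cn-Ctl 2 h replicate 2 (-0.64, adjusted p = 0.0885), without SM-Cn-/- 2 h replicate 2 (-0.70, adjusted p = 0.0644) and under quantile normalization (-0.51, adjusted p = 0.0953). In all 3 SM-Cn-/- libraries Osmr, Il4ra and Bcl3 were also below every Cn-Ctl library at 2 h without passing, with -0.73 ± 0.21 for Osmr (adjusted p = 0.0524). Osmr passed with only the groups compared in the fit (adjusted p = 0.0331), with a group mean of at least 5 (0.0454), with a replicate block (0.0464) and in DESeq2 (0.0169).

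At 6 h, 1 of 7 was lower in SM-Cn-/- (1.98% of all genes), Osmr (-0.89 ± 0.21, adjusted p = 0.0232), a call lost without any of 6 h Cn-Ctl replicates 2 and 3 and SM-Cn-/- replicates 2 and 3 (-0.87 to -0.71, adjusted p 0.0671 to 0.173). At 24 h, 1 of 7 was lower (4.94% of all genes), Socs3 (-1.87 ± 0.44, adjusted p = 0.0145). Cn-Ctl 24 h replicate 3 carried much of that difference, which was -1.19 without it (adjusted p = 0.381), and the call was also lost without SM-Cn-/- 24 h replicate 3 (-1.78, adjusted p = 0.0508).

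The response of SM-Cn-/- minus that of Cn-Ctl was tested as an interaction and uses the same libraries as the contrasts above, the untreated difference included. At 2 h, 1 of 7 passed (0.513% of all genes), Socs3, with -3.36 ± 0.59 (95% interval -4.59 to -2.13, adjusted p = 0.0076). It was lost without untreated Cn-Ctl replicate 3 (-3.17, adjusted p = 0.0655) and kept without each of the 10 other libraries. Stat3 gave -0.69 ± 0.25 (adjusted p = 0.383), Pim1 -1.58 ± 0.67 (adjusted p = 0.526) and Bcl3 -2.71 ± 0.71 (adjusted p = 0.122). At 6 h, 0 of 7 passed in limma (0.0624% of all genes), with 2 at an unadjusted p under 0.05 and 0 in edgeR and in DESeq2, and Socs3 gave -1.87 ± 0.59 (adjusted p = 0.518). At 24 h, 0 of 7 passed in limma (0.513% of all genes), with 1 at an unadjusted p under 0.05, 0 in edgeR and 1 in DESeq2, Socs3, whose limma value was -2.52 ± 0.63 (adjusted p = 0.072) and passed without Cn-Ctl 24 h replicate 2 (-3.20, adjusted p = 0.0142). For Il4ra and Osmr the intervals of the 2 h difference, -2.04 to 0.06 and -1.20 to 0.09, allow a smaller response as well as an equal one.

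Markers of other cells moved with genotype too. At 2 h 1 of 6 endothelial markers was higher and 1 of 6 smooth muscle markers lower in SM-Cn-/-, and at 24 h 2 of 6 endothelial markers were higher and 1 of 6 smooth muscle and 1 of 5 fibroblast markers lower. The summed signal of the 6 endothelial markers was 645 to 839 in SM-Cn-/- and 292 to 531 in Cn-Ctl at 2 h, 548 to 713 and 305 to 422 untreated, and 1052 to 1132 and 461 to 468 at 24 h. That of the 6 smooth muscle markers was 25340 to 31710 and 27300 to 35480 at 2 h, which overlapped. It did not overlap untreated (20880 to 24330 and 28540 to 29140) or at 6 h (23120 to 28970 and 32210 to 33880). The sums of the 6 macrophage markers overlapped at 2 h, at 107 to 135 and 73.4 to 181. Untreated they did not, at 84.5 to 138 in SM-Cn-/- and 47.6 to 59.4 in Cn-Ctl. In Cn-Ctl 1 of the macrophage markers rose at 2 h and 2 at 24 h. Their part in the differences of Socs3 and Stat3 was not tested.

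**Figure D2:**
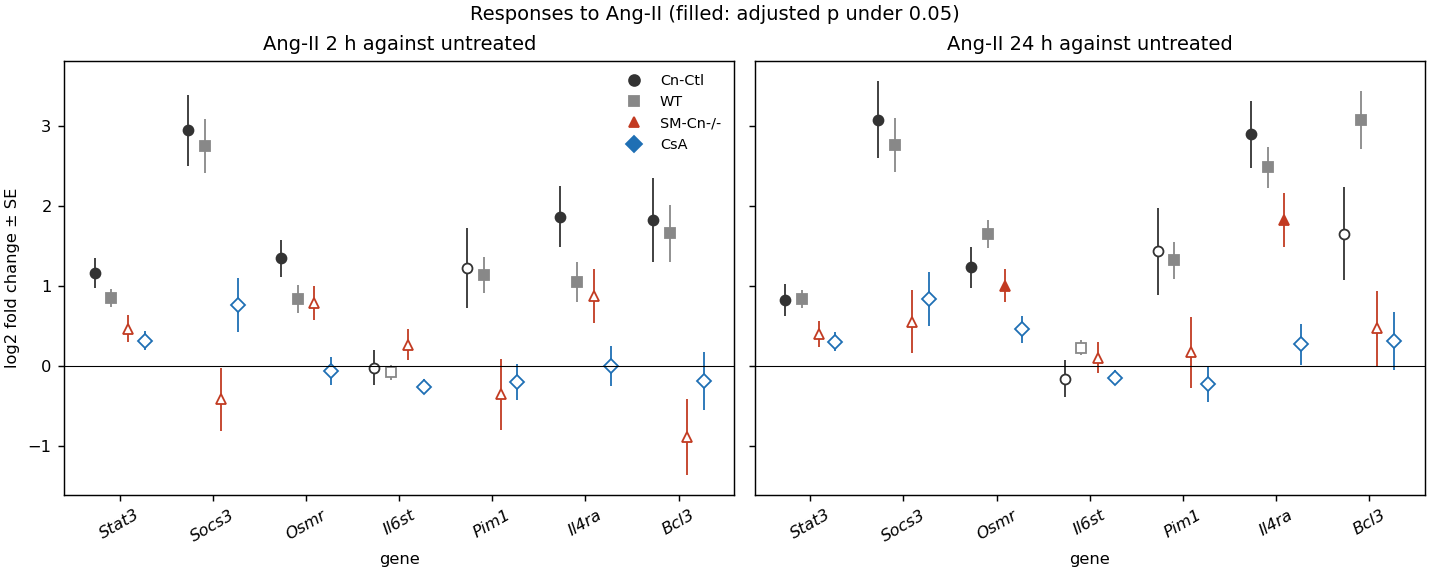
Log2 fold change ± SE of each gene (x axis) after 2 h and 24 h of Ang-II against the untreated libraries of the same background, for Cn-Ctl, WT, SM-Cn-/- and CsA, filled where the adjusted p was under 0.05. Socs3 at 2 h stands at 2.94 in Cn-Ctl and 2.75 in WT, against -0.42 in SM-Cn-/- and 0.76 in CsA.

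CsA by itself, before any Ang-II, was accompanied by more mRNA of the same receptor chains and downstream genes. In untreated aortas 4 of the 7 genes were higher in CsA than in WT (25.2% of all genes tested passed), and the 3 CsA libraries were above the 3 WT libraries for all 7. The median log2 fold change of the 7 was 0.96, against -0.02 over all genes, and quantile normalization moved the median of all genes in this comparison to -0.11.

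Bcl3 changed most, from 1.44, 0.993 and 2.21 in WT to 9.48, 9.60 and 10.8 in CsA (2.39 ± 0.36, adjusted p = 0.000786). Il4ra was 31.7, 34.7 and 35.4 in CsA against 10.2, 11.8 and 12.5 in WT (1.53 ± 0.25, adjusted p = 0.00112). Pim1 was 24.2, 17.2 and 23.9 against 9.44, 9.20 and 8.45 (1.21 ± 0.23, adjusted p = 0.00219). Osmr was 62.4, 77.3 and 67.0 against 37.3, 33.5 and 34.8 (0.96 ± 0.17, adjusted p = 0.00179). For Bcl3 and Il4ra these levels lay above, and for Pim1 and Osmr they overlapped, those of WT after 2 h of Ang-II. The 4 calls were kept without each library in turn. Socs3, at 14.2, 15.4 and 12.03 in CsA, stayed well below its 40.9 to 67.1 in WT at 2 h, and its difference from untreated WT was 0.89 ± 0.33 (adjusted p = 0.0624). Stat3, at 135, 153 and 146, differed by 0.28 ± 0.11 (adjusted p = 0.0816) and Il6st, at 363, 361 and 337, by 0.17 ± 0.09 (adjusted p = 0.194). These 3 calls turned on the setting. Socs3 passed with only the groups compared in the fit (adjusted p = 0.0105), with a replicate block (0.0466) and in DESeq2 (0.0376), Stat3 passed with only the groups compared (0.0266) and under quantile normalization (0.35, adjusted p = 0.0223), and Il6st passed under quantile normalization (0.31, adjusted p = 0.0294).

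The cell markers moved strongly in this same comparison. All 6 smooth muscle markers were lower in untreated CsA (summed signal 16240 to 18310 against 25560 to 35070 in WT), while all 6 endothelial markers (930 to 1073 against 358 to 597), all 6 macrophage markers (143 to 194 against 64.3 to 89.7) and 4 of 5 adipocyte markers (2165 to 3475 against 449 to 842) were higher. Of 5 neutrophil markers 2 were higher, with sums of 11.3 to 28.1 against 1.56 to 2.23. Their part in the higher Bcl3, Il4ra, Pim1 and Osmr was not tested.

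**Figure D3:**
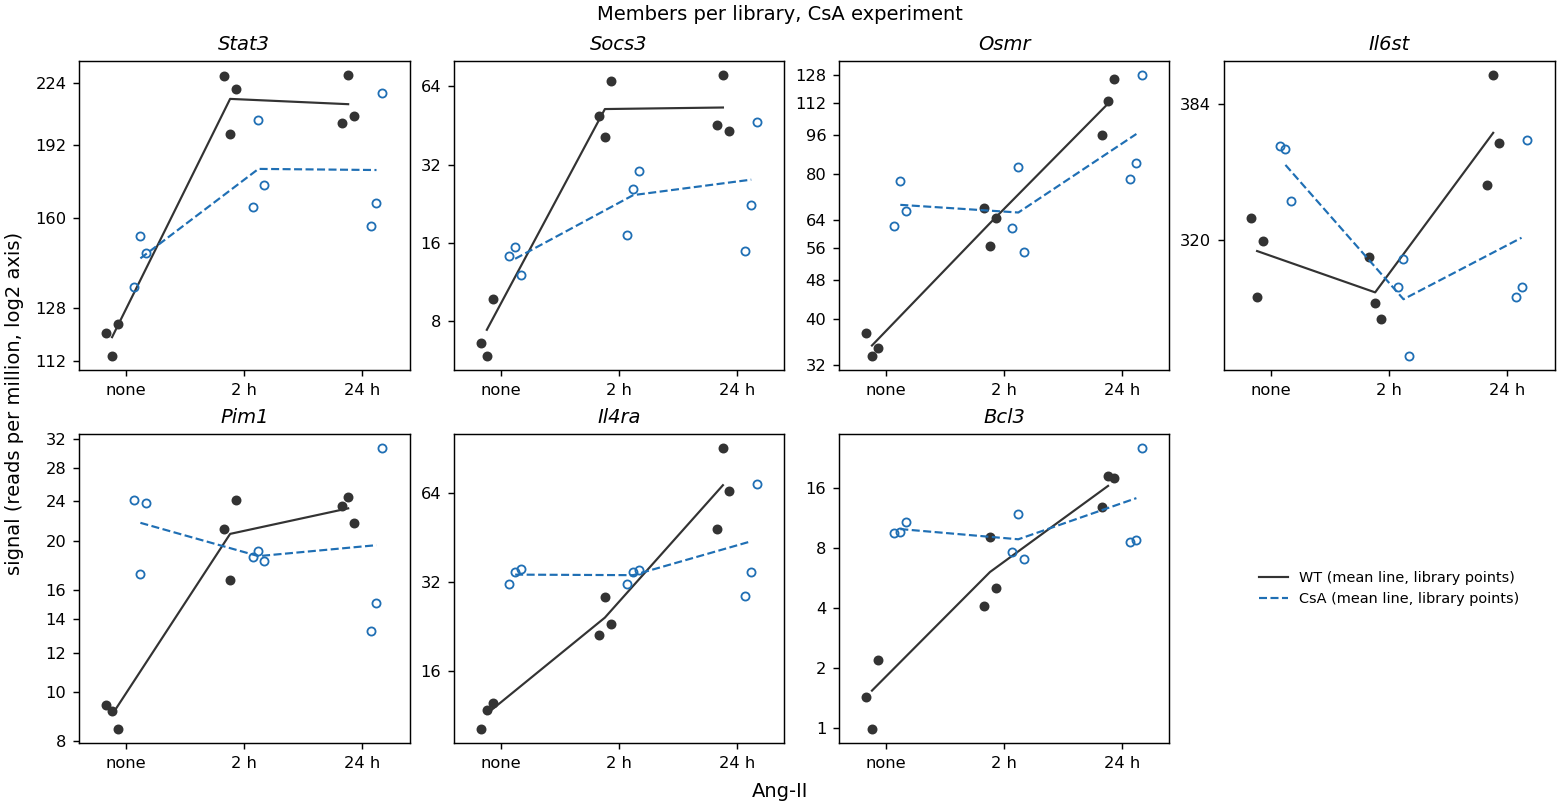
Signal of each gene (log2 axis, normalised value) in each of the 18 libraries of the CsA experiment by hours of Ang-II, with filled points for WT, open points for CsA and lines through the group means. Untreated CsA lies above untreated WT in all 7 panels, and CsA at 24 h has 1 library, replicate 3, above the other 2 in each panel.

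Starting from these levels, no member passed against untreated CsA at 2 h or 24 h of Ang-II in limma with all libraries in the fit. At 2 h, 0 of the 7 genes passed against untreated CsA in limma (20.1% of all genes tested passed), 3 did at an unadjusted p under 0.05, and edgeR called 0 and DESeq2 2, Stat3 and Il6st. At 24 h, 0 of 7 passed in limma (8.97% of all genes), 3 at an unadjusted p under 0.05, and edgeR called 0 and DESeq2 3, Stat3, Socs3 and Osmr. Between 24 h and 2 h, 1 of 7 was higher (18% of all genes), Osmr (0.52 ± 0.17, adjusted p = 0.0459), a call lost without CsA 24 h replicate 3 (0.30, adjusted p = 0.201) and without CsA 2 h replicate 1 or 3 (0.48 and 0.40, adjusted p 0.104 and 0.159).

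Socs3 in CsA was 17.2, 25.8 and 30.3 at 2 h and 14.8, 22.3 and 46.8 at 24 h. The 2 h libraries lay above the untreated ones, and the log2 fold changes were 0.76 ± 0.33 (95% interval 0.05 to 1.47, adjusted p = 0.116) and 0.83 ± 0.33 (0.12 to 1.54, adjusted p = 0.128). Stat3 was 164, 204 and 174 at 2 h and 157, 166 and 218 at 24 h, above all untreated CsA libraries, with 0.32 ± 0.11 and 0.30 ± 0.11 (adjusted p 0.0608 and 0.107). Its 2 h difference passed without CsA 2 h replicate 1 (0.38, adjusted p = 0.0419) and in DESeq2 (0.34, adjusted p = 0.0267). Il6st was lower at 2 h than untreated in all libraries (301, 312 and 274, log2 fold change -0.26 ± 0.09, adjusted p = 0.056) and passed under quantile normalization (-0.53, adjusted p = 0.00212).

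At 2 h Osmr was 61.8, 82.4 and 55.0, Pim1 was 18.6, 19.1 and 18.3, Il4ra was 31.6, 34.7 and 35.1, and Bcl3 was 7.69, 11.8 and 7.04, and each overlapped untreated CsA. The 95% interval of the log2 fold change at 2 h was -0.43 to 0.30 for Osmr, -0.68 to 0.28 for Pim1, -0.54 to 0.53 for Il4ra and -0.96 to 0.57 for Bcl3. At 24 h replicate 3 stood apart in Osmr (77.8, 84.2 and 128), Pim1 (13.2, 15.1 and 30.6), Il4ra (28.7, 34.5 and 68.9) and Bcl3 (8.60, 8.81 and 25.3). Without it Pim1 was lower at 24 h than in untreated CsA (-0.59, adjusted p = 0.023), and with it the difference was -0.23 ± 0.23 (adjusted p = 0.553). For 5 other members the difference from untreated CsA at 24 h was smaller or changed sign without it, and passed neither with nor without it. Socs3 went from 0.83 to 0.39, Osmr from 0.46 to 0.24, Stat3 from 0.30 to 0.16, Il4ra from 0.27 to -0.11 and Bcl3 from 0.31 to -0.18. Of the cell markers, 4 of 6 for macrophages (median log2 fold change -0.75) and 1 of 2 for skeletal muscle were lower at 2 h than in untreated CsA, and 1 of 6 for smooth muscle was higher. Their part in the values at 2 h was not tested.

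Under Ang-II no member passed between CsA and WT. At 2 h, 0 of 7 differed between CsA and WT in limma (1.33% of all genes tested passed), 2 did at an unadjusted p under 0.05, and edgeR called 0 and DESeq2 1, Socs3, whose CsA libraries all lay below those of WT (-1.09 ± 0.33, 95% interval -1.80 to -0.38, adjusted p = 0.106 in limma). At 24 h, 0 of 7 differed in limma (5.57% of all genes), with 4 at an unadjusted p under 0.05 and 0 in edgeR and in DESeq2. That count was 4 without CsA 24 h replicate 3, where Stat3 (-0.39, adjusted p = 0.0397), Socs3 (-1.48, adjusted p = 0.0139), Pim1 (-0.70, adjusted p = 0.024) and Il4ra (-1.06, adjusted p = 0.0114) were lower in CsA, against -0.25 ± 0.11, -1.04 ± 0.33, -0.33 ± 0.23 and -0.68 ± 0.25 with it. At 2 h the summed smooth muscle markers lay at 19940 to 25740 in CsA and 28170 to 35340 in WT. Endothelial sums lay at 764 to 953 and 539 to 597, though no marker of either list passed. At 24 h 1 of 6 macrophage and 1 of 5 fibroblast markers were lower in CsA. The part of these cell markers in the differences was not tested.

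The response of CsA minus that of WT was tested as an interaction, which contains the difference of the untreated groups as well as that of the treated ones. At 24 h, 6 of 7 had a smaller response in CsA (9.42% of all genes tested passed in either direction). The differences were -2.76 ± 0.51 for Bcl3 (adjusted p = 0.00682), -2.21 ± 0.35 for Il4ra (adjusted p = 0.00356), -1.54 ± 0.32 for Pim1 (adjusted p = 0.0106) and -1.19 ± 0.24 for Osmr (adjusted p = 0.0101), and these 4 were kept without each of the 12 libraries in turn. For Bcl3, 2.39 of the 2.76 is the difference of the untreated groups and 0.36 that of the treated ones.

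For Socs3 the treated groups contributed more. Its response at 24 h differed by -1.92 ± 0.47 (adjusted p = 0.0203), of which 0.89 is the untreated and 1.04 the treated difference, and the call was lost without WT untreated replicate 2, WT 24 h replicate 2 or CsA 24 h replicate 1 or 2 (-1.85 to -1.56, adjusted p 0.0546 to 0.0635). Stat3 gave -0.53 ± 0.16 (adjusted p = 0.0499), which was kept only without CsA 24 h replicate 3 among the 12 libraries left out in turn (-0.58 to -0.44 in the other 11, adjusted p 0.0551 to 0.134). Il6st gave -0.37 ± 0.13 (adjusted p = 0.0799), and -0.47 without CsA 24 h replicate 3 (adjusted p = 0.0133). Between untreated and 24 h the summed macrophage markers went from 64.3 to 89.7 up to 170 to 242 in WT. In CsA they lay at 143 to 194 and 150 to 192. By the same interaction at 24 h all 6 macrophage and 4 of 6 endothelial markers had a lower response in CsA. For smooth muscle 1 of 6 had a higher one. The part of these cell markers in the differences was not tested. At 2 h, 0 of 7 passed in limma (0.146% of all genes), although 6 had an unadjusted p under 0.05, edgeR called 0 and DESeq2 4, Socs3, Osmr, Pim1 and Bcl3. The limma values at 2 h ran from -1.98 ± 0.47 for Socs3 (adjusted p = 0.102) to -0.18 ± 0.13 for Il6st (adjusted p = 0.544) and were negative for all 7.

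**Figure D4:**
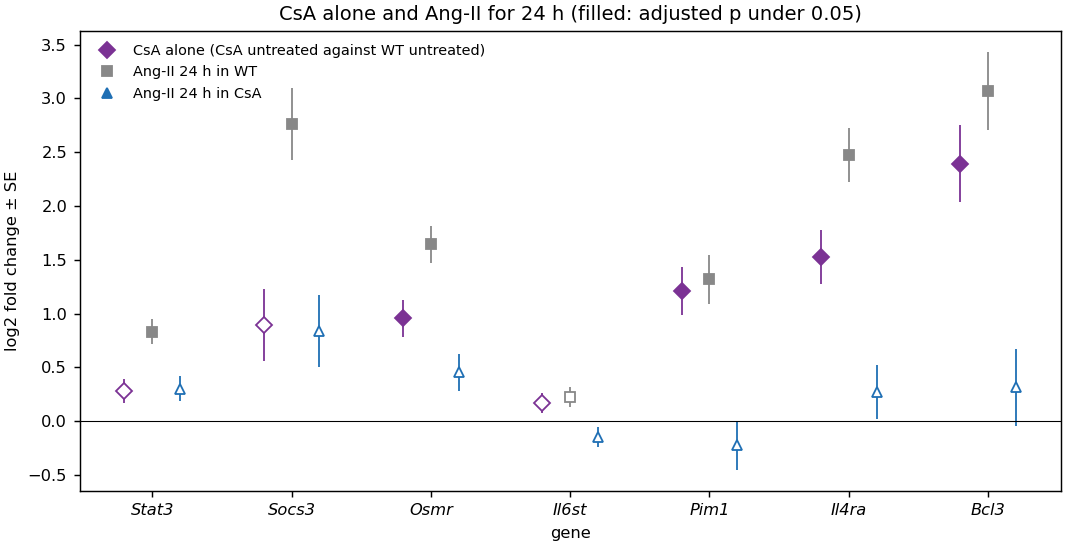
Log2 fold change ± SE of each gene (x axis) for CsA alone against untreated WT, for 24 h of Ang-II in WT and for 24 h of Ang-II in CsA, filled where the adjusted p was under 0.05. For Pim1 the first 2 lie at 1.21 and 1.32, for Socs3 at 0.89 and 2.76.

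Loss of smooth muscle Cn and CsA were not tested against each other, since the tables were normalised separately. Side by side at 2 h, Osmr and Il4ra gave 0.78 and 0.88 in SM-Cn-/- and -0.07 and -0.01 in CsA. Untreated CsA held 62.4 to 77.3 of Osmr and 31.7 to 35.4 of Il4ra, and untreated SM-Cn-/- 28.4 to 33.8 and 4.47 to 14.3. These levels cannot be ranked across the experiments, since untreated controls differed too, with Il4ra means of 11.5 in WT and 4.91 in Cn-Ctl. Socs3 gave -0.42 in SM-Cn-/- and 0.76 in CsA, neither past the threshold.

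The rest of the pathway was read from lists of 57 measured genes in each experiment, grouped by role. In Cn-Ctl at 2 h, 9 were higher and 1 lower (6.23% of all genes tested passed in either direction), against 1 and 0 in SM-Cn-/- (1.13% of all genes). In WT at 2 h, 17 were higher and 3 lower (21.4% of all genes), against 8 and 6 in CsA (20.1% of all genes). In untreated CsA against WT 20 were higher and 6 lower (25.2% of all genes). The differences between these counts were not tested.

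Of the interleukin-6 family ligands, Il6 was close to undetected without Ang-II. Il6 rose in Cn-Ctl at 2 h from a mean of 0.0820 to 3.38 (2.39, adjusted p = 0.0465) and in WT at 24 h from 0.0736 to 4.52 (2.98, adjusted p = 0.000212). Il11 rose in WT at 24 h from 0.468 to 12.1 (3.42, adjusted p = 1.75e-05), Lif from 0.562 to 3.92 and Clcf1 from 10.1 to 33.9. At 24 h these 4 ligands, Il6, Il11, Lif and Clcf1, were lower in CsA than in WT, at 0.633, 1.50, 1.23 and 14.4. Osm, the ligand of the Osmr chain, was not listed in either table.

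Among receptors, Il6ra, the chain specific to interleukin-6, rose in Cn-Ctl at 2 h (9.94 to 33.1, adjusted p = 0.0025) and in WT at 2 h (7.96 to 20.2, adjusted p = 9.14e-05), and was 18.5 in untreated CsA. Of the 4 receptor genes on that list, 1 was lower in WT at 2 h, Il11ra1, and 2 were lower in WT at 24 h, Il11ra1 (256 to 152) and Lifr (70.0 to 54.3), where the median log2 fold change of the 4 was -0.52. In Cn-Ctl at 24 h 1 of the 4 was lower, Lifr (82.8 to 39.6). Of the Janus kinases, Jak1 rose in WT at 2 h by 0.34 (90.7 to 115), Jak2 passed in no Ang-II response at 2 h or 24 h, and Tyk2 fell in WT at 2 h by 0.94 on the log2 scale (34.3 to 17.7). Jak3, which pairs with the common gamma chain Il2rg, was higher in untreated CsA than in WT (29.8 against 8.27), as was Il2rg (8.98 against 3.31).

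Stat2, which carries interferon signals, was higher in untreated CsA than in WT (64.4 against 24.4) and fell in CsA at 2 h to 24.0. Among the other SOCS genes Socs2 rose in WT at 2 h (57.1 to 113) and in CsA at 2 h (57.8 to 113), so that its 2 responses were 0.98 and 0.97. Cish was higher in untreated CsA (20.1 against 4.70). Pias3, which codes for an inhibitor of STAT3, fell at 2 h in Cn-Ctl (59.9 to 30.7) and WT (51.2 to 31.6). Of the PIM kinases, Pim3 rose in WT at 2 h (37.0 to 64.0) and was higher in untreated CsA (69.9).

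Of 18 genes known as STAT3 targets, 7 rose at 2 h of Ang-II for Cn-Ctl, 1 for SM-Cn-/-, 8 for WT and 5 for CsA, where 6.23%, 1.13%, 21.4% and 20.1% of all genes passed in either direction, and 2 fell in CsA. Myc rose from 1.43 to 42.6 in Cn-Ctl (4.47, adjusted p = 1.1e-05) and was 5.01 in SM-Cn-/- at 2 h, and its response differed between the genotypes (-4.27, adjusted p = 0.00607). Bcl2l1, which codes for the survival protein BCL-XL, rose in all 4 backgrounds at 2 h, most in Cn-Ctl (2.01), then SM-Cn-/- (1.85), WT (1.65) and CsA (1.17). Cebpd rose in Cn-Ctl and WT at 2 h (1.95 and 1.67) and was lower in SM-Cn-/- than in Cn-Ctl at 2 h by 0.96 on the log2 scale (14.98 against 29.4). Serpina3n, Hp, Lcn2 and Lrg1, which code for acute phase proteins, were higher in untreated CsA than in WT, by 2.73, 3.35, 3.37 and 2.68, and 13 of the 18 targets were higher in WT at 24 h (35% of all genes passed in either direction).

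**Figure D5:**
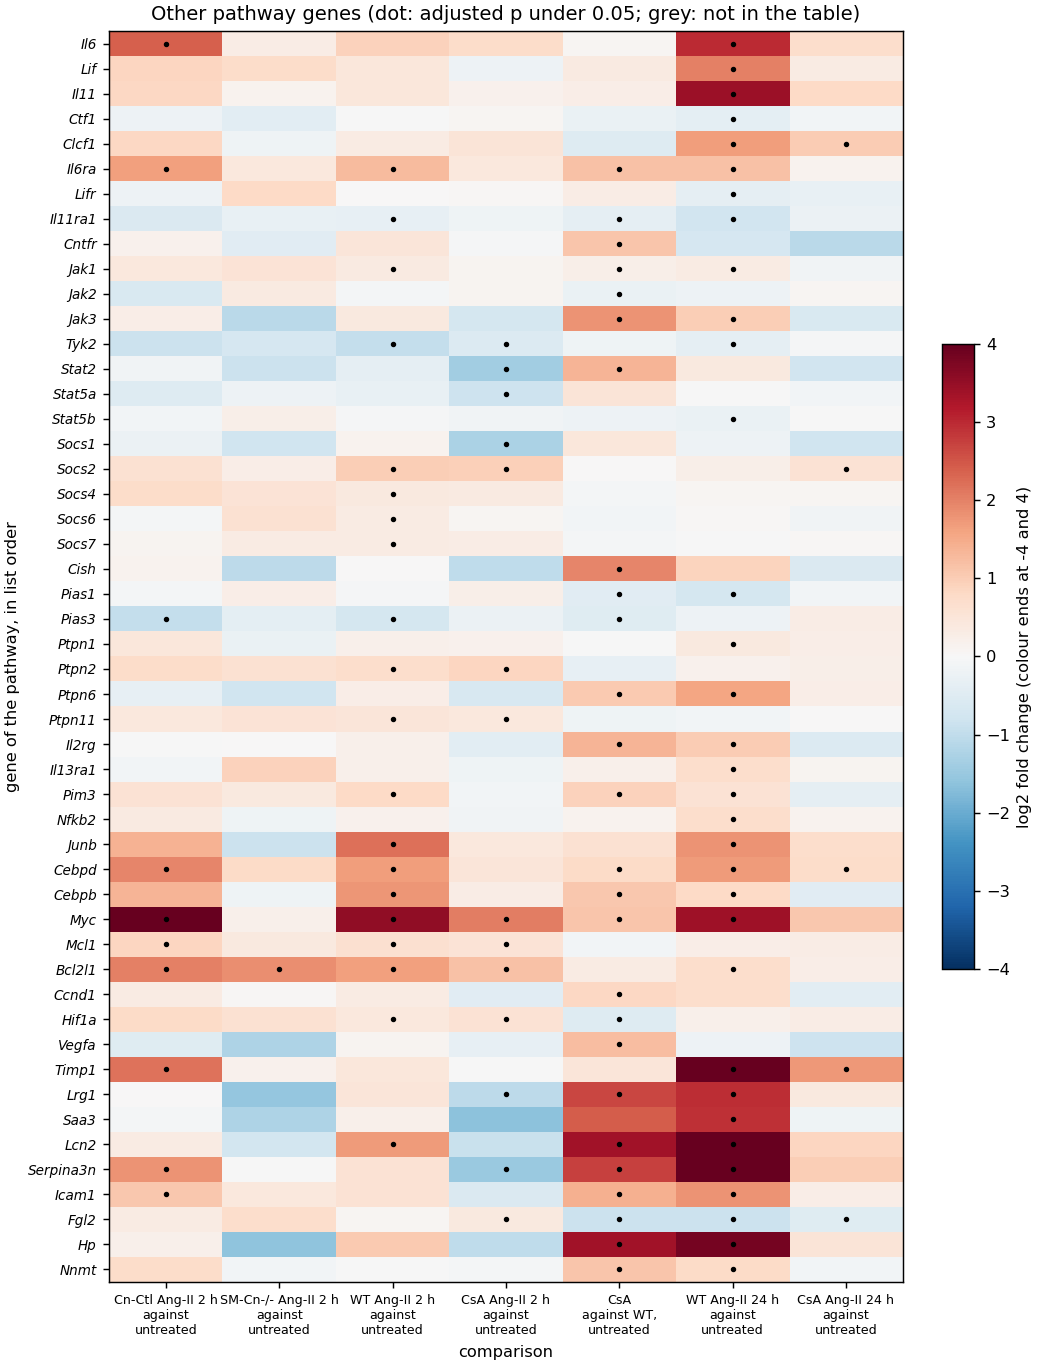
Log2 fold change of 50 other genes of the pathway (rows, in list order) in 7 comparisons (columns), red for higher and blue for lower, with a dot where the adjusted p was under 0.05. In the column of SM-Cn-/- at 2 h only Bcl2l1 carries a dot.

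Across libraries Stat3 and Socs3 followed each other closely, with a Pearson r of log2 signal of 0.82 over the 22 libraries of the genotype experiment and 0.97 over the 18 of the CsA experiment. Il4ra and Bcl3 gave 0.58 and 0.96, and Il6st and Stat3 0.07 and 0.15. These values describe groups that share treatments and carry no test. Among 11046 genes, those most like Socs3 in both experiments were Pvr, Myc and Has1 (smaller r of the 2 experiments 0.89, 0.86 and 0.86), and those most like Stat3 were Relt, Lrrc32 and Pgf (0.92, 0.90 and 0.90). Il17ra led for Osmr (0.84), Ece1 for Il4ra (0.89), before the chemokine genes Ccl6 and Ccl9 (0.88 and 0.86), and Ccng1 for Il6st (0.73), while Sbno2 led for both Pim1 and Bcl3 (0.74 and 0.74).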

How the data were processed

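Aortic RNA was measured in 22 libraries of the genotype experiment and 18 of the CsA experiment, 2 to 3 per group, each of 3 pooled aortas. Per the labels and methods, the authors aligned reads with Bowtie 0.12.7 and assigned them to Ensembl transcripts with RSEM 1.16. They discarded 1 untreated Cn-Ctl replicate that stood apart. The deposited values are a normalised signal per gene, close to reads per 1 M assigned reads, on a scale the authors set for each table by a method not given in the sources used here, and whether counting used strand is not given either. Dividing by the step of each library gave whole reads (within 0.02) for 100% of values, and these reads give the depths.

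Groups came from the labels. Log2(signal + 0.5) of all protein-coding genes was fitted with limma 3.58.1 (R 4.3.3) over all groups of a table, with Benjamini-Hochberg adjustment, two-sided. The fit was also run on simulated reads in which genes of a single group were changed, a simpler setting than these data. No result given here rests on that run. The understatement of low genes by the added 0.5 applies to every log2 fold change. Alternatives were an added value of 2, a group mean of at least 5, quantile normalization, a fit of only the groups compared, edgeR 4.0.16 and DESeq2 1.42.0 on the recovered reads, the replicate number as a block, and leaving out each library. The named genes were the 7 members, and pathway genes with an adjusted p under 0.05 in a comparison together with the ligands and kinases. A gene of the pathway lists is not reported here. The members and all gene lists were chosen with earlier results of these data known. Per-kilobase levels used GENCODE vM21 exon lengths on GRCm38.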

Additional observations from a re-analysis of the deposited data

Results flagged for a closer look

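A response that differed between 2 backgrounds, by the interaction test, was found for 7 results. The Socs3 response to 2 h of Ang-II was lower in SM-Cn-/- than in Cn-Ctl by 3.36 on the log2 scale (-3.357). The responses to 24 h of Ang-II were lower in CsA than in WT for Bcl3 (-2.756), Il4ra (-2.21), Socs3 (-1.925), Pim1 (-1.544), Osmr (-1.19) and Stat3 (-0.53). The last value is the closest to the threshold, with an adjusted p of 0.0499 in limma, and it did not pass with an added value of 2 (0.0505), with only the groups compared in the fit (0.0543), with a replicate block (0.0589) or in edgeR (0.0698). No cause of these differences was tested.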

How the results depend on the processing

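Of 48 calls among 182 pairs of gene and comparison, 35 were kept in every alternative that gave a value and 30 without each library in turn, and 0 changed sign. The cause of each change below was not tested. With only the groups compared in the fit, the number of members passing went from 4 to 2 in Cn-Ctl at 6 h and at 24 h, from 1 to 0 in SM-Cn-/- at 6 h, from 2 to 0 in SM-Cn-/- at 24 h, from 0 to 1 in SM-Cn-/- between 24 h and 2 h, from 1 to 0 between genotypes at 6 h and at 24 h, from 1 to 0 in CsA between 24 h and 2 h, and from 0 to 3 for the response at 2 h of CsA minus WT. With DESeq2 it was 1 in Cn-Ctl between 24 h and 2 h, 1 in SM-Cn-/- at 2 h, 2 at 6 h and 1 between 24 h and 2 h, 1 for the response at 24 h between genotypes, 2 in CsA at 2 h and 3 at 24 h, 1 between CsA and WT at 2 h, and 4 for the response at 2 h of CsA minus WT. With quantile normalization it was 2 in SM-Cn-/- at 6 h, 1 between genotypes at 2 h, 1 in CsA at 2 h and 2 between 24 h and 2 h. SM-Cn-/- at 6 h also had 2 with edgeR and 2 with a group mean of at least 5, a filter under which Bcl3 gave no value in the genotype experiment. Deviations of same-numbered libraries from their group means gave r from -0.374 to 0.339 in the genotype experiment and from -0.389 to 0.377 in the CsA experiment. The median r was 0.0587 and -0.0283, against -0.0419 and -0.0129 for libraries of other numbers. Whether the replicate numbers pair libraries was not tested. A replicate block gave 1 in SM-Cn-/- at 2 h, 2 at 6 h and 0 in CsA between 24 h and 2 h, and moved no other count by over 1.5 times.

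Without each library in turn, the count ran from 3 to 4 in Cn-Ctl at 2 h, 2 to 4 at 6 h and 2 to 5 at 24 h. In SM-Cn-/- it ran from 0 to 1 at 2 h, 0 to 3 at 6 h and 0 to 2 at 24 h. Between genotypes it ran from 1 to 2 at 2 h and 0 to 1 at 6 h and 24 h, and for the response between genotypes from 0 to 1 at 2 h and 24 h. It ran from 3 to 4 in WT between 24 h and 2 h, from 0 to 1 in CsA at 2 h, at 24 h and between them, from 0 to 4 between CsA and WT at 24 h, and from 4 to 7 for the response at 24 h of CsA minus WT. It stayed at 6 in WT at 2 h and 24 h and at 4 between untreated CsA and WT. In CsA, uncalled log2 fold changes turned sign: at 2 h that of Osmr ran from -0.23 to 0.056 and that of Il4ra from -0.054 to 0.041 without a library, with 0.0087 for Il4ra in DESeq2, and at 24 h that of Pim1 ran from -0.59 without replicate 3 to 0.00051 without replicate 1, that of Il4ra from -0.105 to 0.518 and that of Bcl3 from -0.181 to 0.569, both lowest without replicate 3.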
